A study of Mus musculus with 9 samples.

Results

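Immune checkpoint genes encode the receptors and ligands that restrain or promote T-cell activation. Here 9 of them were read in MYCN-driven T-cell lymphoma of the mouse thymus: the inhibitory receptor genes Pdcd1, Ctla4, Lag3, Havcr2, Tigit and Btla, the co-stimulatory receptor genes Cd28 and Icos, and the ligand gene Cd274. They were chosen by name, out of 21883 protein-coding genes on the autosomes and sex chromosomes. T cells carry the receptors on their surface, where PD-1 (Pdcd1) meets PD-L1 (Cd274) and where CTLA-4 competes with CD28 for shared ligands. Inhibitory receptors are known to accumulate on activated T cells and to stay high on exhausted ones.

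The cells were thymic lymphoma cells from C57BL/6J mice, and every sample of the series shares this source. The samples were 7 chromatin immunoprecipitations by ChIPmentation (tagmentation of antibody-bound chromatin), 1 library per antibody, and 2 input libraries that had no peak list here. The antibodies were directed at H3K4me3, a mark of active promoters, H3K27ac, a mark of active promoters and enhancers, the acetyltransferase p300, the transcription factor N-MYC, the Polycomb repressive complex 2 subunits EZH2 and SUZ12, and H3K27me3, the repressive mark that this complex deposits. The labels do not give the promoter that drives MYCN, the animal behind each immunoprecipitation or whether animals were pooled. With 1 library per antibody there is no replicate spread, so values are given without a test, and differences between lists may be differences between libraries.

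The lists held between 9798 peaks (N-MYC) and 123056 peaks (H3K27me3). Read depth is not stated, and a missing peak means only that the authors' caller made no call. Of 10 T-cell marker genes, 7 had a start in the RefSeq promoter table, and 6 of these carried H3K4me3 at fold enrichments (signal over background) from 24.3 to 41.8; Cd8a, singled out after its values were seen, carried H3K27me3 instead. Of 25 markers of other cell types, 14 could be read, and 5 carried H3K4me3, at 4.74 to 19.8 (Cd79a, Klrb1c, Epcam, Klf1 and Hbb-bt). By type these were 2 of 2 erythroid, 1 of 2 B-cell, 1 of 2 NK-cell, 1 of 4 thymic epithelial, 0 of 3 myeloid and 0 of 1 stromal markers. Of all protein-coding genes with a listed start, 52.1% carried H3K4me3 there. Whether other cells contributed to the peaks below was not tested, and in bulk chromatin fewer cells with a mark cannot be told apart from less of the mark per cell.

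At the gene start, the checkpoint genes ranged from promoters with strong H3K4me3, H3K27ac and p300 to no peak at all. A peak was counted when it overlapped the window of 1 kb either side of the start by at least 1 bp. H3K27ac was called at 6 of 9 starts, against 52.2% of 17491 protein-coding genes with a listed start. H3K4me3 was called at 4 of 9 (52.1% of all), p300 at 3 (40.6%), N-MYC at 3 (34.0%) and EZH2 at 1 (46.0%). SUZ12 and H3K27me3 were called at 0 of 9 starts, against 12.8% and 24.3%. Starts were then classed by active features (H3K4me3, H3K27ac, p300 or N-MYC) and Polycomb features (SUZ12 or H3K27me3, with EZH2 alone not counted). By class, 6 starts carried active features only (47.5% of all), 3 carried neither active nor Polycomb features (28.2%), 0 carried Polycomb features only (16.0%) and 0 carried both (8.35%). With 9 genes, each gene moves a count by 11.1 percentage points. The H3K4me3, H3K27ac, p300, N-MYC and SUZ12 counts and the counts of every class lie within 2 genes of the background.

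**Figure D1:**
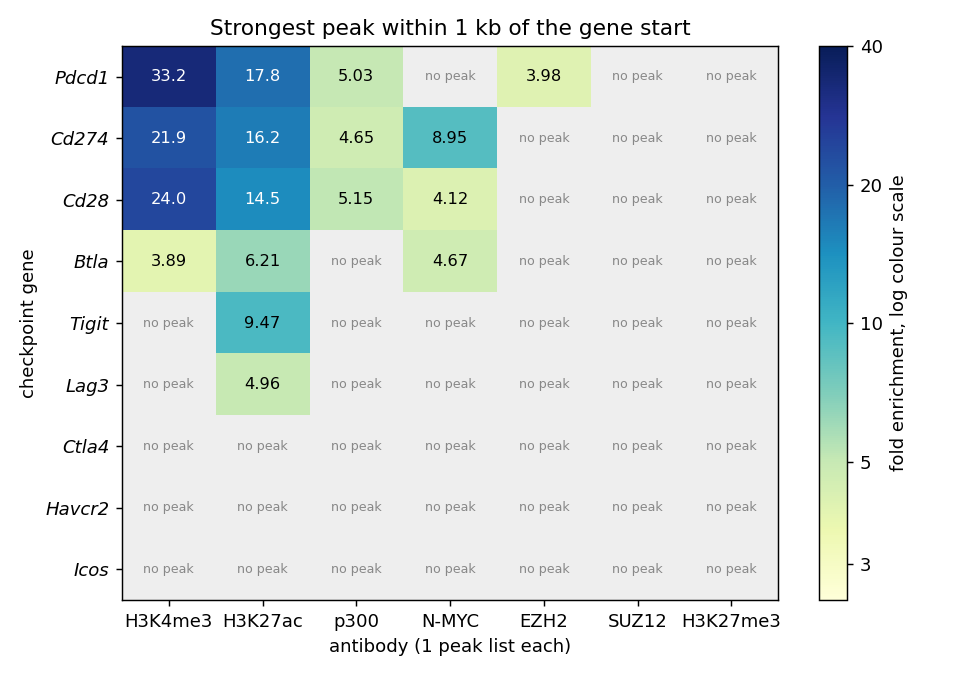
Fold enrichment of the strongest peak within 1 kb of the start of each checkpoint gene (rows) in each peak list (columns), as the authors' values on a log colour scale, with grey cells for no peak. Pdcd1, Cd274 and Cd28 combine H3K4me3 of 21.9 to 33.2 with H3K27ac and p300, Tigit and Lag3 carry H3K27ac alone, and Ctla4, Havcr2 and Icos carry no peak.

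Starts came from the RefSeq promoter table (GRCm38.p6) for 6 genes. Lag3, Cd28 and Icos have no entry there. Cd28 and Icos are known to be transcribed in the direction of Ctla4, and Lag3 in that of its neighbour Cd4, so the corresponding end of each span was read as the start, and the other end is given as well. A transcript that begins inside the span would be missed by this choice, which is why whole spans were read too.

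The promoters of 4 genes are shown because they span the range of states: Pdcd1 was the most strongly marked, Cd274 and Btla carried N-MYC, and Ctla4 carried nothing. Each runs from 250 bases before the start to 30 after it, in RefSeq sequence of GRCm38.p6. Capitals mark CG dinucleotides and, in Btla, the E-box CACGTG, the motif that MYC-family proteins bind with their partner MAX.
Pdcd1 (chr1:94052524-94052803, minus strand): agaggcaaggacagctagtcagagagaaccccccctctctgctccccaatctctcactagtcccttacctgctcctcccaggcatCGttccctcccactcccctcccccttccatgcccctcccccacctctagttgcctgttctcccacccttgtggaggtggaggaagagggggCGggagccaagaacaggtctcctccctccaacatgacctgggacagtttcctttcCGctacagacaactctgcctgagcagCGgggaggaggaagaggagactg
Cd274 (chr19:29367188-29367467, plus strand): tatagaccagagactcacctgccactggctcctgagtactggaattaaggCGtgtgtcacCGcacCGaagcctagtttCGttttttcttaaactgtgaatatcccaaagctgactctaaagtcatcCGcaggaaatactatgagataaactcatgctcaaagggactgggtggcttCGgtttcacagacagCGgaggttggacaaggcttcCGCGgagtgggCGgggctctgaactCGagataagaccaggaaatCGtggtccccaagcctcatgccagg
Btla (chr16:45224087-45224366, plus strand): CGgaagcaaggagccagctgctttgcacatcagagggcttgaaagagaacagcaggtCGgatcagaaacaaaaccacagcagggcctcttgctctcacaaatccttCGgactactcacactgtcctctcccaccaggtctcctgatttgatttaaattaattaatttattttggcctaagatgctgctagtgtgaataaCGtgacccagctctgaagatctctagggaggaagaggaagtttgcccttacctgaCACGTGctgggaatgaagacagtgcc
Ctla4 (chr1:60908775-60909054, plus strand): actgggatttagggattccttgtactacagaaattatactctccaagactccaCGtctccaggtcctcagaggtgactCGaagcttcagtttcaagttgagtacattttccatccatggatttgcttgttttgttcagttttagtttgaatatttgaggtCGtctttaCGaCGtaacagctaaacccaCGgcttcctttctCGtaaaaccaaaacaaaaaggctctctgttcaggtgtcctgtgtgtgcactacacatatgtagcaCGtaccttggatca

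Sequence features were computed over 300 bases, from 250 before to 50 after the start. CACGTG, which reads the same on both strands, occurred in 1 of the 6 checkpoint promoters in the table, at base 5 after the start of Btla, and in 7.15% of all 32851 promoters of that length. The looser motif CANNTG, which includes CACGTG, occurred in 4 of the 6 and in 72.3% of all. Cd274 had 15 CG dinucleotides and an observed-over-expected CpG ratio of 0.72, above the median of 0.38. Pdcd1 had 5 CG dinucleotides and a ratio of 0.19, a value under which 27.3% of promoters lay, although its GC content was 60.7%. The ratio was 0.61 for Ctla4, 0.39 for Tigit, 0.28 for Btla and 0.20 for Havcr2. Marked and unmarked starts thus lay at both ends of the range. Pdcd1 and the unmarked Havcr2 start had the lowest ratios of the 6, and Cd274 and the unmarked Ctla4 start the highest.

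Pdcd1, which encodes the inhibitory receptor PD-1, lies on chromosome 1 from 94038305 to 94052553 and is transcribed towards lower coordinates. Its H3K4me3 peak had a fold enrichment of 33.2 (−log10 q 180) and was 5.94 kb wide. Only 156 of the 16899 H3K4me3 peaks were wider. H3K27ac formed a peak of 9.11 kb over the start with a fold enrichment of 17.8, higher than 97.0% of that list. Together, 8 H3K27ac peaks covered 83.2% of the Pdcd1 span, and 97.9% of protein-coding genes had a smaller share covered. The gene was thus acetylated along most of its length.

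At the Pdcd1 start p300 had 2 peaks, of 5.03 and 3.75, and EZH2 had 2 weak peaks of 3.98 and 2.95. The EZH2 peaks lay 0.35 and 0.78 kb downstream of the start by their summits, and the better of them exceeded 24.5% of the EZH2 list. Neither EZH2 peak reached a q-value of 1e-05 or a fold enrichment of 4. SUZ12 and H3K27me3 had no peak within 50 kb of the gene, so the weak EZH2 calls stood beside active features alone. Of the 4 checkpoint starts with both H3K4me3 and H3K27ac, Pdcd1 was the 1 with EZH2, while EZH2 was called at 74.6% of 8518 protein-coding starts with both marks. N-MYC was called at 3 of these 4 (68.6% of the 8518) and p300 at 3 (82.3%).

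N-MYC was not called at the Pdcd1 start. The nearest N-MYC peak (fold enrichment 6.35, −log10 q 13.5) had its summit 16.8 kb downstream of the start, beyond the far end of the gene, on chromosome 1 from 94035313 to 94035859. It lay among 3 p300 peaks of 3.90 to 5.27 and inside an H3K27ac peak of 7395 bp (fold enrichment 9.20), with no H3K4me3. Upstream of Pdcd1, another H3K27ac peak of 5.57 kb (9.36) ran from 26.6 to 21.0 kb before the start, with no peak of another list. An upstream enhancer of Pdcd1 is known from exhausted CD8 T cells; whether this peak lies on it was not tested. Pdcd1 thus had acetylated blocks on both sides, and only the downstream one carried N-MYC and p300. The listed start nearest to the downstream N-MYC summit was that of Neu4, 15237 bp away. The downstream block therefore cannot be assigned to Pdcd1 rather than Neu4.

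Cd274 encodes PD-L1, the ligand of PD-1, and lies on chromosome 19 from 29362107 to 29388095. Its listed start, at 29367438, carried H3K4me3 of 21.9 (−log10 q 89.4), H3K27ac of 16.2 and 3 p300 peaks of 3.41 to 4.65. N-MYC had a fold enrichment of 8.95 (−log10 q 22.7), the strongest N-MYC value at any checkpoint start and above 87.5% of the N-MYC list. The N-MYC summit lay 40 bp upstream of the start and the strongest p300 summit 4 bp upstream. Plgrkt lies on the opposite strand, and its span begins, in its own direction of transcription, 146 bp upstream of the same start. These peaks therefore cannot be assigned to Cd274 rather than Plgrkt.

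The ligand gene had further active peaks over its span. An H3K4me3 peak of 10.7 had its summit 4.54 kb after the listed start, under an H3K27ac peak of 3.08 kb (8.72). Another, of 9.47, lay over the lower-coordinate end of the span, with its summit 73 bp from the listed start of Plgrkt. In all, H3K27ac covered 26.4% of the span. EZH2, SUZ12 and H3K27me3 had no peak in the span. Their peaks in the flank, at 4.64, 3.26 and 6.26, lay together about 32 kb upstream, near the starts of Rln1 and Gm52390. The neighbouring Pdcd1lg2, which encodes the second PD-1 ligand and was singled out after its values were seen, had no peak at its start, although H3K27ac peaks lay inside its span, the strongest of them at 12.004 and 2.74 kb wide.

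**Figure D2:**
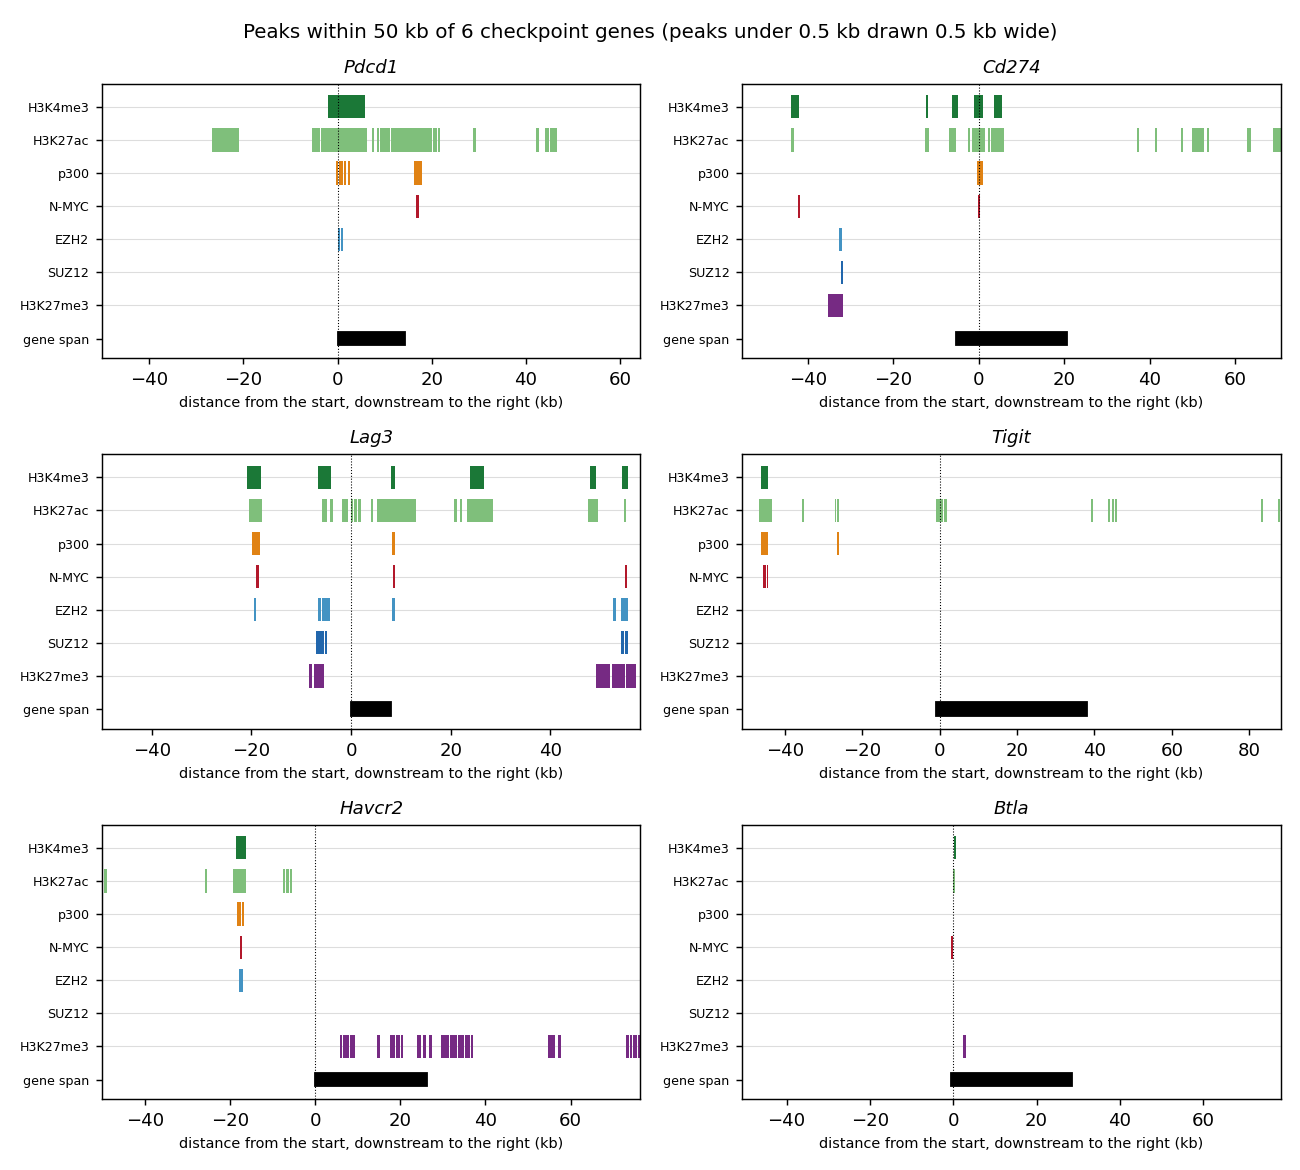
Peaks of the 7 lists within 50 kb of 6 checkpoint genes, by distance from the start in kb with downstream to the right; black bars are gene spans and the dotted line is the start. The Pdcd1 panel shows H3K27ac on both sides of the gene with N-MYC 16.8 kb downstream, Havcr2 shows H3K27me3 from 5.95 kb onwards, and Btla shows 4 small peaks.

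Btla, an inhibitory receptor gene on chromosome 16 (45223705 to 45252895), was weakly marked. H3K4me3 had a fold enrichment of 3.89 in a peak of 384 bp, above 10.3% of the H3K4me3 list. H3K27ac reached 6.21 and N-MYC 4.67 (−log10 q 7.18), with no p300. The N-MYC peak ended 0.121 kb before the start and so did not reach the E-box at base 5. A single H3K27me3 peak of 541 bp (4.77) lay inside the gene. These 4 peaks were all that the 7 lists held within 50 kb of Btla.

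Tigit and Lag3 carried H3K27ac at the start without H3K4me3. This combination was found at 6.65% of the 9125 protein-coding starts with H3K27ac, and at 2 of the 6 checkpoint starts with it. The Lag3 start was inferred from orientation, while the background used listed starts. The combination was not particular to these genes: of 9 other co-receptors read below, all carried H3K27ac and only 6 carried H3K4me3. The H3K27ac list held 87072 peaks and the H3K4me3 list 16899. In lists of equal length (9798 peaks), H3K27ac was called at 4 of 9 checkpoint starts, against 35.6% of protein-coding genes with a listed start. It was no longer called at Lag3 or Btla. Tigit encodes an inhibitory receptor for PVR and lies on chromosome 16 from 43626137 to 43665125. Its start had 1 H3K27ac peak of 1.82 kb with a fold enrichment of 9.47 (−log10 q 37.9). H3K27ac covered 6.06% of the span, and no other list had a peak there.

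Away from the gene, a cluster of active peaks lay about 45 kb upstream of the Tigit start, with no listed start of any gene within 1 kb. It held H3K4me3 of 10.5, H3K27ac of 16.4, p300 of 4.65 and 3.78, and 3 N-MYC peaks of 3.77, 4.66 and 5.13. For each of these lists it was the strongest site within 50 kb of Tigit, higher than the start itself. EZH2, SUZ12 and H3K27me3 had no peak within 50 kb. The Tigit span overlaps the far end of Zbtb20.

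Lag3 encodes a receptor for MHC class II and lies on chromosome 6 from 124904359 to 124912434, between Ptms and Cd4. The end read as its start had 3 H3K27ac peaks, of 3.31, 4.13 and 4.96, and no other peak. The opposite end was far stronger. There, H3K27ac reached 18.3 in a peak of 6.53 kb, H3K4me3 19.7 in a peak of 787 bp, p300 6.19, N-MYC 4.97 and EZH2 3.83. The 4 narrower peaks all lay just outside the Lag3 span, on its Cd4 side, with no listed start within 1 kb, while the H3K27ac peak reached into the span. The sequence upstream of Cd4 is known to hold an enhancer of Cd4; whether these peaks lie on it was not tested. H3K27ac covered 53.9% of the Lag3 span, more than in 94.8% of protein-coding genes.

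Cd28, Ctla4 and Icos form a cluster on chromosome 1 and differed sharply from each other. Cd28 encodes the main co-stimulatory receptor of T cells (60746388 to 60773359). The end read as its start carried H3K4me3 of 24.0 in a peak of 3.63 kb, H3K27ac of 14.5, 4 p300 peaks of 3.78 to 5.15 and N-MYC of 4.12 (−log10 q 5.08). EZH2, SUZ12 and H3K27me3 had no peak within 50 kb of Cd28. A second active site lay 30.7 kb downstream of the start, beyond the gene's other end and beside the lncRNA gene 2310016D23Rik. It had N-MYC of 5.95, p300 of 5.64 and H3K27ac of 8.50. N-MYC was thus stronger at this downstream site than at the Cd28 start. Another site, about 35 kb downstream, had H3K4me3 of 14.0, H3K27ac of 13.3 in a peak of 4.24 kb and p300 of 3.90, without N-MYC.

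Ctla4, which encodes the inhibitory counterpart of CD28, starts 162.6 kb beyond Cd28 (60909025 to 60915832). No list had a peak at its start or in its span. Within 50 kb, 7 H3K27me3 peaks of 2.75 to 6.26 lay between 29.3 and 14.8 kb upstream of the start. An H3K4me3 peak of 5.31 overlapped the ribosomal pseudogene Rpl18-ps1.

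Icos encodes an inducible co-stimulatory receptor (60960773 to 61000322). Its span held 11 H3K27me3 peaks of 2.88 to 10.1, which covered 45.5% of it, and no peak of the other 6 lists. This share was larger than in 92.1% of protein-coding genes. The first H3K27me3 peak began 19.1 kb after the lower-coordinate end, and the widest, of 12.8 kb (fold enrichment 7.13), ran past the higher-coordinate end. With 50 kb on either side, the region held 36 H3K27me3 peaks covering 42.7 kb, and still no EZH2 or SUZ12 peak. Across the 253.9 kb from Cd28 to the end of Icos, all 21 H3K27ac, 7 p300 and 2 N-MYC peaks lay on the Cd28 side of Ctla4, and 11 of 18 H3K27me3 peaks lay beyond the Ctla4 start.

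**Figure D3:**
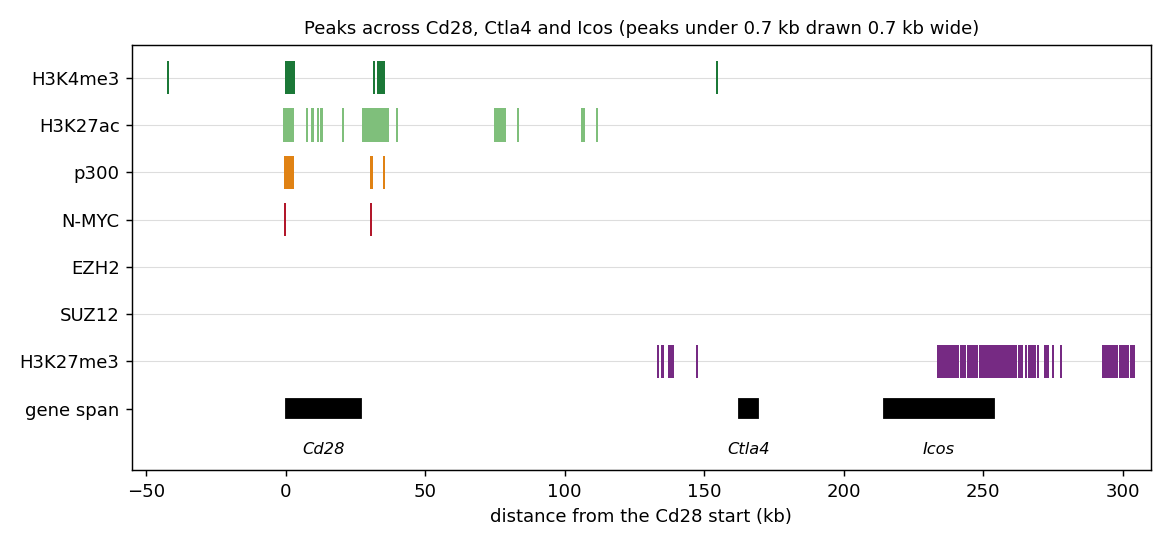
Peaks of the 7 lists across Cd28, Ctla4 and Icos, by distance from the Cd28 start in kb, with gene spans as black bars. Active peaks stop 111.6 kb after the Cd28 start apart from 1 H3K4me3 peak at 154.6 kb, H3K27me3 lies over Icos, and the EZH2 and SUZ12 rows are empty.

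Havcr2, which encodes the inhibitory receptor TIM-3, lies on chromosome 11 from 46454931 to 46481255. It had no peak at its start. Its span held 15 H3K27me3 peaks of 3.40 to 8.58, starting 5.95 kb downstream of the start and covering 25.9% of the gene. This share was larger than in 88.3% of protein-coding genes. No other list had a peak in the span. Of 35 H3K27me3 peaks within 50 kb, none lay upstream of the start. The active peaks upstream, among them H3K4me3 of 43.1 and N-MYC of 4.21, lay mainly at the start of Med7, and 3 small H3K27ac peaks of 3.39 to 4.18 lay between 7.38 and 5.47 kb upstream of Havcr2.

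Over whole spans, H3K27me3 was called in 3 checkpoint genes (Icos, Havcr2 and Btla), against 30.1% of protein-coding genes and 27.2% of those in the same range of lengths, 6.81 to 39.55 kb. None of these 3 had an EZH2 or SUZ12 peak in the span. Of all 6597 protein-coding genes with H3K27me3 in the span, 44.0% likewise had neither. In the other lists the counts over spans equalled those at starts: H3K27ac 6 of 9 (57.9% of protein-coding genes, 66.8% of those of similar length), H3K4me3 4 (54.0% and 62.2%), p300 3 (42.0% and 48.6%), N-MYC 3 (35.3% and 39.5%), EZH2 1 (47.0% and 49.6%) and SUZ12 0 (14.9% and 12.2%). Btla had peaks of both H3K27ac and H3K27me3, over 2.16% and 1.85% of its span, and Ctla4 had neither.

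**Figure D4:**
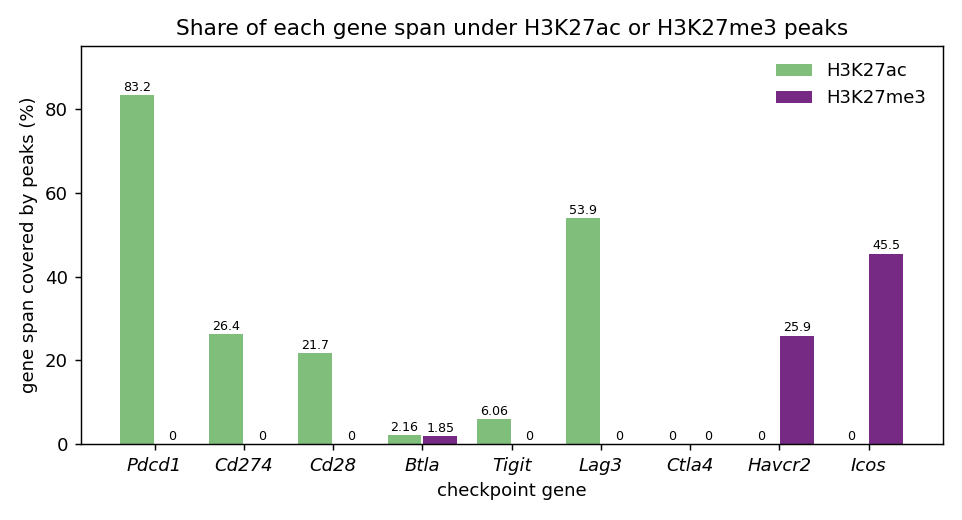
Share of each checkpoint gene's span, in percent, that lay under H3K27ac peaks (green bars) or H3K27me3 peaks (purple bars). Pdcd1 has the largest H3K27ac share, 83.2%, Icos the largest H3K27me3 share, 45.5%, and Ctla4 has neither.

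Ctla4 and Icos were the 2 checkpoint genes with no H3K27ac, p300 or N-MYC peak within the gene and 50 kb on either side, a state found for 25.2% of protein-coding genes. Within that distance N-MYC was called at 7 of 9 genes (59.9% of protein-coding genes), H3K27ac at 7 (74.5%), p300 at 6 (63.3%), H3K4me3 at 8 (71.9%) and H3K27me3 at 6 (66.2%). EZH2 was called at 4 (69.2%) and SUZ12 at 2 (33.5%). The EZH2 peaks near Havcr2 and Cd274 and the SUZ12 peaks near Lag3 and Cd274 lay at starts of other genes.

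Genes with the same combination of lists at the start and the closest fold enrichments were sought for each checkpoint gene with 3 or more lists. The measure was the mean absolute log2 ratio of fold enrichment over the called lists. Of the protein-coding genes, 939 (5.37%) shared the Pdcd1 combination, itself included, and the closest was Cd3e, a chain of the T-cell receptor complex, at 0.026 over 4 lists. Cd3e had H3K4me3 of 33.2, H3K27ac of 19.02, p300 of 5.02 and EZH2 of 3.97. Next were Ubr2 (0.073) and Zfp958 (0.079). Closest to Cd274 were Pdxk (0.080), Dcps (0.084) and Prdx3 (0.11). Closest to Cd28 were Dnajc14 and Tmem198b, whose values were identical (0.068), and Zfp719 (0.076). Btla had a rarer combination, shared by 0.743% of genes, and its closest were Cisd3 (0.19), Fry (0.26) and Bpi (0.26).

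The 4 lists of related genes were read in the same window. Percentages in brackets are shares of all 17491 protein-coding genes with a listed start. Of 12 ligands and partners, 9 could be read, and 6 carried H3K4me3 (52.1%). Of these genes, 3 combined active and Polycomb features (8.35%). These were Icosl, the ICOS ligand gene (H3K4me3 2.94, EZH2 6.48, SUZ12 3.53, H3K27me3 13.1), Cd276 (20.8, 5.67, 4.36 and 7.12 in the same order) and Nectin2, which had N-MYC of 4.80 and H3K27me3 of 6.82. Icosl had no H3K27ac, p300 or N-MYC peak, so its class rests on an H3K4me3 peak below a fold enrichment of 4. Tnfrsf14, the gene of the BTLA ligand HVEM, had H3K4me3 of 17.1 without EZH2 or SUZ12, and Lgals9, which encodes the TIM-3 ligand galectin-9, had 27.8. N-MYC was called at 1 of the 9 (34.0%).

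Among other co-receptors, all 9 genes that could be read carried H3K27ac (52.2% of all protein-coding genes), and 6 carried H3K4me3 (52.1%). N-MYC was called at 2 genes (34.0%), Cd5 (5.09) and Cd96 (4.92). EZH2 was called at 3 genes (46.0%), Cd27 (5.57), Cd200 (4.64) and Cd5 (4.07). H3K27me3 was called at 1 gene (24.3%), Tnfrsf9, at 7.31, and SUZ12 at 0 (12.8%). Tnfrsf9 was named after its values were seen. Of the signalling proteins below these receptors, 11 could be read and all 11 carried H3K4me3 (52.1%). Of these 11, 10 carried p300 (40.6%), 8 EZH2 (46.0%), 6 N-MYC (34.0%), 0 SUZ12 (12.8%) and 0 H3K27me3 (24.3%). N-MYC ranged from 4.31 at Lat to 7.15 at Zap70, the kinase that relays T-cell receptor signals. Ptpn11, the gene of the phosphatase SHP2 that PD-1 recruits, had H3K4me3 of 35.9, N-MYC of 5.34 and EZH2 of 6.64.

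Transcription factors linked to exhaustion were split. Of 11 that could be read, 9 carried EZH2 (46.0% of all protein-coding genes), 5 SUZ12 (12.8%), 5 H3K27me3 (24.3%) and 6 N-MYC (34.0%). H3K4me3 was called at 7 (52.1%), H3K27ac at 6 (52.2%) and p300 at 5 (40.6%). By class, 5 carried active features only (47.5%), 3 Polycomb features only (16.0%), 2 both (8.35%) and 1 neither (28.2%). Eomes (EZH2 12.4, SUZ12 11.1, H3K27me3 11.6), Tox2 (11.7, 12.3 and 16.8) and Prdm1 (8.42, 7.68 and 18.5) carried Polycomb features only. Nr4a2, a factor induced by T-cell receptor signals, carried N-MYC of 8.82 and EZH2 of 8.80 with H3K4me3 of 38.9 and no SUZ12 or H3K27me3. Nr4a3 carried all 7 lists, with N-MYC of 7.01 and SUZ12 of 5.83. Batf carried N-MYC of 4.84 without EZH2.

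**Figure D5:**
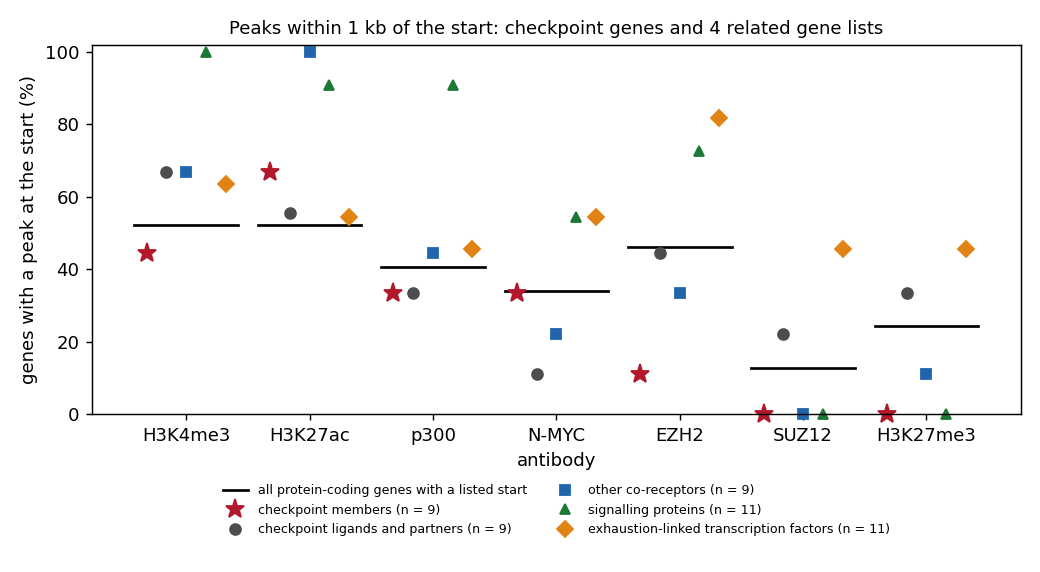
Percent of genes with a peak within 1 kb of the start in each list, for the 9 checkpoint genes (stars), 4 related gene lists (other symbols, with the number of genes read) and all 17491 protein-coding genes with a listed start (black lines). Checkpoint genes lie below the line for EZH2 (11.1% against 46.0%) and near it for N-MYC (33.3% against 34.0%). They lie at 0% for SUZ12 and H3K27me3, against 12.8% and 24.3%, where 1 gene of 9 is 11.1%.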

How the data were processed

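Peak lists of 7 ChIPmentation libraries were used, 1 per antibody. The submitters' processing notes name Bowtie2, SAMtools, MACS2, deepTools and the builds mm10 and GRCm38; parameters, control libraries and pooling are not given in the sources used here. Fold enrichment, a linear ratio over background, and −log10 q were taken as deposited by the authors. The deposited score equalled 10 times −log10 q with decimals dropped and was not used. Columns were identified from the narrowPeak layout, and positions are counted from 1. The smallest −log10 q per list was 2.00 to 2.08. Depth is unknown.

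Overlaps of at least 1 bp were counted with Python 3.11.15, pandas 2.3.3 and numpy 2.4.6, on 21 chromosomes, and were tested on simulated data. Gene spans and starts came from RefSeq tables of GRCm38.p6; a gene with several listed starts counted when any had a peak. Backgrounds used protein-coding genes. The starts of Lag3, Cd28 and Icos rest on known orientation. Exons and introns were not analysed here. Percentiles are shares of a list's peaks with a lower fold enrichment.

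The 9 genes and the related lists were chosen with earlier results of these data known. Named were all 9 genes, related genes with an N-MYC, EZH2 or SUZ12 peak or among the 4 highest H3K4me3 values of their list, non-T-cell markers with H3K4me3, and the 3 genes most like each checkpoint gene with at least 3 lists. The alternatives changed the window, peak threshold, overlap rule, list length and start.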

Additional observations from a re-analysis of the deposited data

How the results depend on the processing

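With 9 genes, small counts move easily; 296 alternative values for counts and shares stayed within 1.5 times the reported value and 30 did not; the cause of the other shifts was not tested except where the setting itself removes peaks or widens the window. EZH2 at starts and in spans fell from 1 gene to 0 at a q-value of at most 1e-05, at a fold enrichment of at least 4 and in lists of equal length (9798 peaks). The share of protein-coding starts with EZH2 was 41.4%, 41.0% and 34.5% under these settings. With a window of 5 kb, EZH2 was called at 2 starts (48.4% of protein-coding genes), SUZ12 at 1 (13.8%) and H3K27me3 at 1 (31.3%). In that window 2 starts had both classes of feature. Reading either end of the span gave EZH2 at 2 genes (44.3% of protein-coding genes) and H3K27me3 at 2 (27.6%). It left 2 genes with Polycomb features only and 1 with neither. Counting EZH2 alone as Polycomb gave 1 start with both. Reading the other end of Lag3, Cd28 and Icos, an alternative chosen after seeing the data, gave EZH2 at 2 and H3K27me3 at 1; using the 6 listed starts only, also added, left each count within 1.5 times or at 0. N-MYC in spans fell from 3 to 0 without the first 1 kb of each gene. Around the loci, SUZ12 fell from 2 genes to 1 at the stricter q-value, to 0 at fold enrichment 4, to 1 within 20 kb and to 1 in lists of equal length, which also gave H3K4me3 at 5, EZH2 at 2 and H3K27me3 at 3. The background for H3K27me3 at starts was 15.8% in lists of equal length. CANNTG in place of CACGTG gave 4 promoters and 72.3% of all promoters. At fold enrichment 4, ligands and partners had p300 at 0 (34.4% of protein-coding starts) and SUZ12 at 1 (10.4%). Of single fold enrichments, 119 alternative values stayed and 8 moved; a peak lost under an alternative has no value there. Reading the span ends moved Cd274 H3K4me3 from 21.9 to 9.47 and H3K27ac from 16.2 to 6.31, lost its p300 and N-MYC peaks, and moved Lag3 H3K27ac from 4.96 to 18.3. Lag3 H3K27ac was 3.31 within 500 bp, 7.44 within 5 kb and 4.13 with the summit in the window; Cd28 p300 went from 5.15 to 4.401 within 500 bp or by summit. No paired analysis was possible because each antibody had 1 library and no result comes from a test.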
